A study of Mus musculus with 4 samples.

Results

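The cells described here are Pax8-positive cells of the fetal mouse gonad and of ESC-derived gonadal cultures, a group named after the supporting-like lineage. A cell was taken as a member if it carried at least 1 UMI of Pax8, no UMI of Gata3 or Ret, and fewer than 2 UMIs of Amh, where a UMI (unique molecular identifier) stands for 1 counted transcript molecule. The members were thus chosen by measured values of these 4 genes. The rule gave 174 members among 7150 retained cells of 3 libraries: 56 of 2101 cells (E11.5 gonads), 34 of 2764 cells (E12.5 gonads), and 84 of 2285 cells (D6 of ESC differentiation). Below, values given in threes follow this order. The whole series held 10987 retained cells in 4 libraries. Within each library, the members were compared with cells that lacked Pax8 and carried Nr5a1, of which there were 697, 864, and 606. Pax8, Gata3, Ret, and Amh, and Nr5a1 in the comparison cells, are set by the rule, so their levels are given only as descriptions.

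Supporting-like cells are a lineage at the border between the gonad and the mesonephros. They express the paired-box transcription factor Pax8, they share early features with the supporting cells that become Sertoli or granulosa cells, and they are known as the main source of the rete, the epithelial channels that link the gonad to the efferent ducts. Nr5a1 encodes the nuclear receptor that marks gonadal somatic cells. Gata3 and Ret mark the nephric duct, which also uses Pax8, and Amh (anti-Müllerian hormone) marks Sertoli cells.

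All libraries were XY and each condition had 1 library. The E11.5 and E12.5 libraries came from dissected gonads of the ICR strain, with the mesonephros taken off. The D6 library came from 1 male ESC line, N271S9C, which carries an Nr5a1-hCD271 and a Sox9-2A-CGFP reporter. The labels give C57BL/6J for this line and the study's methods give a cross of this strain with 129X1/SvJ. The ESCs had been differentiated with CHIR99021, BMP4, and EGF, then with retinoic acid, a SHH agonist, and PD0325901, and then with BMP4, FGF9, and IWR1, and the aggregates were enriched on magnetic columns for hCD271, the surface tag that reports Nr5a1. Kit version, strain, culture, enrichment, and depth separate the gonads from the ESC-derived cells and cannot be told apart. The gonad libraries held more UMIs per retained cell, with medians of 11926 and 10946 against 4607 for D6. A library is a single sample, so no difference below has a replicate check, and every interval covers counting error alone at 95%.

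The members were not all of one kind. Germ cells, taken as cells with at least 10 summed UMIs of the 4 germ cell genes Dppa3, Dppa5a, Dazl, and Pou5f1, made up 8 of 56 members (14.3%, exact binomial interval 6.38 to 26.2) at E11.5. They made up 12 of 34 (35.3%, 19.7 to 53.5) at E12.5 and 0 of 84 (0 to 4.30%) at D6. The 8 cells carried 42 to 191 germ cell UMIs and the 12 cells 74 to 240, whereas every other member carried 0 or 1, so that the groups did not overlap. Each of the 20 had exactly 1 Pax8 UMI. They were deep, with medians of 20854.5 and 19340 UMIs in the gonad libraries, against 9073 and 6859 UMIs in the somatic members. None of the 8 and none of the 12 carried at least 2 of the 3 other marker genes Itm2a, C1qtnf12, and Plac8.

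**Figure D1:**
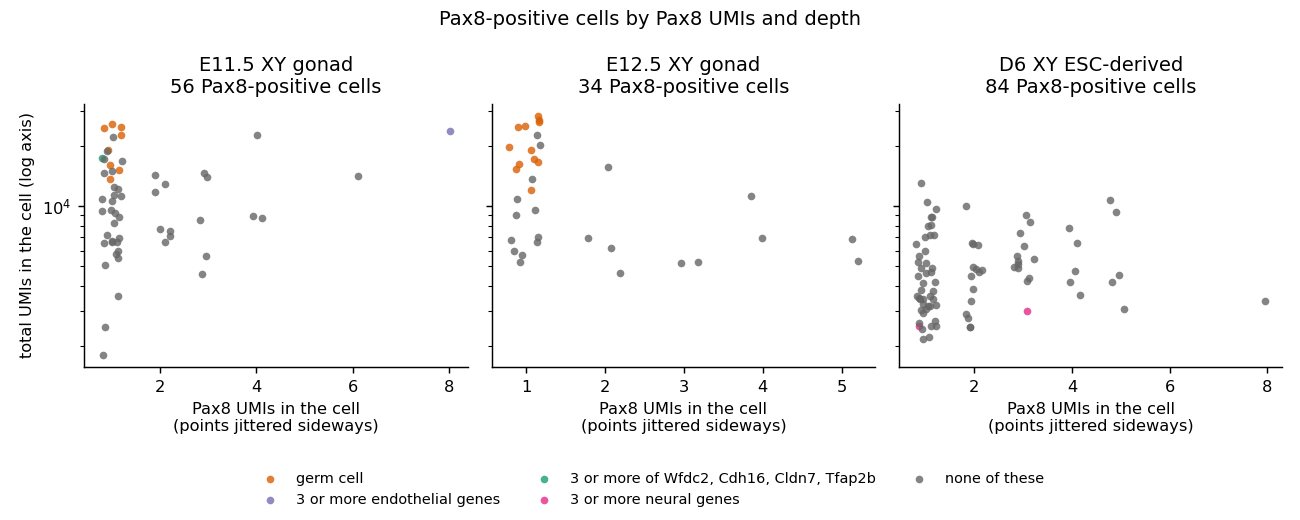
Each point is a Pax8-positive cell, plotted by its Pax8 UMIs (jittered sideways) and its total UMIs (log axis), for each of the 3 libraries. The germ cells (orange) all sit at 1 Pax8 UMI and at high depth, and the cells with 2 or more Pax8 UMIs are somatic.

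The share of cells with at least 1 UMI of Pax8 was also taken in other cell types. Among all germ cells, 5.03% of 179 (2.32 to 9.33) in the younger and 2.69% of 446 (1.40 to 4.65) in the older gonad library had a Pax8 UMI, at a median depth of 17549 and 18636.5 UMIs. In cells with Pdgfra, a marker of interstitial and mesenchymal cells, the 3 shares were 1.11% (0.448 to 2.28), 0.457% (0.148 to 1.06), and 0.995% (0.366 to 2.15). Cells with 3 or more endothelial genes had Pax8 in 1 of 68, 0 of 40, and 0 of 17 cells, where the counts of 0 allow shares up to 7.50% and 17.6%. Among all retained cells, 3.19%, 1.59%, and 4.25% had Pax8, and the Pdgfra-positive cells lay below the whole in each library. The germ cell shares were higher than those of the whole, but their intervals included them. All retained cells were shallower than the germ cells, with medians of 11926 and 10946 UMIs in the gonad libraries. In CPM, defined below, Pax8 was lower in the germ cells, at 3.11 (1.42 to 5.91) and 1.40 (0.725 to 2.45). All retained cells had 4.71 (3.89 to 5.65) and 2.14 (1.67 to 2.69) CPM, with overlapping intervals. The 9 and 12 germ cells with Pax8 had 1 UMI each, whereas the 7, 5, and 6 Pdgfra-positive cells had 14, 7, and 15 UMIs and the 1 endothelial-marker cell had 8. Whether the Pax8 UMIs in these cell types are background or expression was not tested. The part of any background in the members with 1 UMI was not tested either. Members with 1 Pax8 UMI numbered 39 of 56, 24 of 34, and 45 of 84 in the 3 libraries, and the highest count in a cell was 8, 5, and 8. All 66 members with 2 or more Pax8 UMIs were somatic. At least 2 of Itm2a, C1qtnf12, and Plac8 were found, for somatic members with 1 UMI and those with more, in 22 of 31 and 12 of 17 cells at E11.5, in 11 of 12 and 9 of 10 at E12.5, and, in the D6 cells, in 19 of 45 and 20 of 39. After thinning to 2000 UMIs, the shares were 33.3% and 47.1%, 33.3% and 50.0%, and 24.4% and 23.1%. On the other side of the Amh limit, 3, 7, and 7 cells with Pax8 were left out for 2 or more Amh UMIs, and 8, 3, and 6 for Gata3 or Ret, and 8 members in all carried 1 Amh UMI.

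The germ cells were therefore set aside, a choice made after the data were seen, and the remaining 154 somatic members, numbering 48, 22, and 84, were compared with 688, 860, and 606 comparison cells without germ cells. The somatic members were shallower than the comparison cells in each library, with median depths of 9073 against 13199.5, 6859 against 10943, and 4566 against 5913.5 UMIs. Nr5a1 was detected in 27 of 48 (56.2%, 41.2 to 70.5), 13 of 22 (59.1%, 36.4 to 79.3), and 47 of 84 (56.0%, 44.7 to 66.8) of them.

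Somatic Pax8-positive cells made up 2.28% (1.69 to 3.02), 0.796% (0.499 to 1.20), and 3.68% (2.94 to 4.53) of the retained cells. The intervals of the gonad libraries did not overlap, and those at E11.5 and D6 overlapped slightly. When each cell was thinned to 2000 UMIs before the rule was applied, so that depth was equal, the shares were 0.951%, 0.398%, and 2.51%, and D6 had the highest and E12.5 the lowest share as before. With at least 2 Pax8 UMIs they were 0.809%, 0.362%, and 1.71%. The libraries also differed in their limits on detected genes and mitochondrial UMIs, and with 1 set of limits for all libraries the shares were 2.43% (45 of 1855 cells), 0.909% (26 of 2860), and 3.84% (91 of 2368). The D6 share follows enrichment for the Nr5a1 reporter, and the effect of this step on the share was not tested.

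The marker genes proposed for the group were higher in the members of every library. They were chosen with results of these cells known, so their direction is a description and no independent evidence. Levels below are in CPM, counts per 1e+06 UMIs, taken over the summed cells of a group with germ cells left out. Itm2a, which encodes a type II membrane protein (chrX:107397099-107403376, GRCm38), had 458 CPM (400.4 to 521), 769.6 (652 to 902), and 472 (409 to 542) in the members, against 101, 176, and 160.4 CPM in the comparison cells. C1qtnf12, which encodes the secreted protein adipolin (chr4:155962318-155966629), had 348 CPM (298 to 404), 476 (385 to 582), and 268 (221 to 322), against 55.9, 70.2, and 48.3 CPM. The C1qtnf12 ratio was similar in the 3 libraries, at 6.22-fold (5.21 to 7.39), 6.78-fold (5.41 to 8.42), and 5.55-fold (4.36 to 7.05). Plac8, which encodes a small cysteine-rich protein (chr5:100553725-100572245), had 606 CPM (539 to 678), 60.8 (31.4 to 106), and 86.9 (61.2 to 119.8), against 15.9, 12.7, and 17.2 CPM. Plac8 was thus 38.0-fold (31.2 to 46.6) higher than in the comparison cells at E11.5, but only 4.79-fold (2.41 to 8.65, from 12 UMIs) at E12.5 and 5.05-fold (3.28 to 7.67) at D6. Between libraries, the level of Plac8 in the E11.5 members was 9.97-fold (5.62 to 19.5) that of the E12.5 members and 6.97-fold (4.94 to 10.1) that of the D6 members, whereas Itm2a differed by 1.68-fold or less. Pax8 itself (chr2:24420560-24475599), which the rule fixes above 0, had 172, 223, and 392 CPM in the members.

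The markers were also counted together in single cells. At least 2 of Itm2a, C1qtnf12, and Plac8 were found in 34 of 48 (70.8%, 55.9 to 83.0), 20 of 22 (90.9%, 70.8 to 98.9), and 39 of 84 (46.4%, 35.5 to 57.6) members, against 31.1%, 38.3%, and 13.9% of comparison cells, although the members were shallower. After thinning to 2000 UMIs, the shares were 38.3%, 40.9%, and 23.8% of members and 2.86%, 3.84%, and 3.15% of comparison cells. All 3 genes together were found in 23 of 48, 5 of 22, and 10 of 84 members and in 20 of 688, 26 of 860, and 8 of 606 comparison cells. None of the 3 genes was found in 3, 1, and 15 members. The D6 members had the lowest share with at least 2 of these genes, also after thinning, where the shares were taken without intervals. Before thinning, the intervals at E11.5 and D6 overlapped slightly. Of the D6 members, 17.9% had Pax8 with none of the other markers.

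Across all genes, a gene was counted when the mean CPM of the 2 groups was at least 50, and called when the groups were at least 2-fold apart after 10 CPM was added to each. Among somatic cells at E11.5, 45 of 2801 genes were higher (1.61%) and 46 lower (1.64%) in the members, which is 3.25% in either direction. At E12.5, 101 of 3021 were higher (3.34%) and 83 lower (2.75%), 6.09% in all. At D6, 68 of 3547 were higher (1.92%) and 50 lower (1.41%), 3.33% in all. The median log2 ratio of all counted genes was within 0.01 of 0. Scaling by the TMM factor instead of by total UMIs moved all ratios by -0.11, -0.15, and -0.11 on the log2 scale and the split to 32 higher and 58 lower, 59 and 110, and 51 and 60. With the germ cells left among the members, 34 of 2777 genes (1.22%) were higher and 49 (1.76%) lower at E11.5, 2.99% in all. At E12.5, 145 of 2963 (4.89%) were then higher and 208 (7.02%) lower, 11.9% in all, so that 353 genes were called with the 12 germ cells and 184 without them.

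In the somatic members, 14 genes were at least 2-fold higher and 6 at least 2-fold lower in all 3 libraries, and none was higher in both in vivo libraries and lower at D6 or the reverse. The 28 genes called higher at both gonad stages were 62.2% of the E11.5 calls and 27.7% of the E12.5 calls. The 20 genes shared by E11.5 and D6 were 44.4% and 29.4% of the respective lists, and the 21 shared by E12.5 and D6 were 20.8% and 30.9%.

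**Figure D2:**
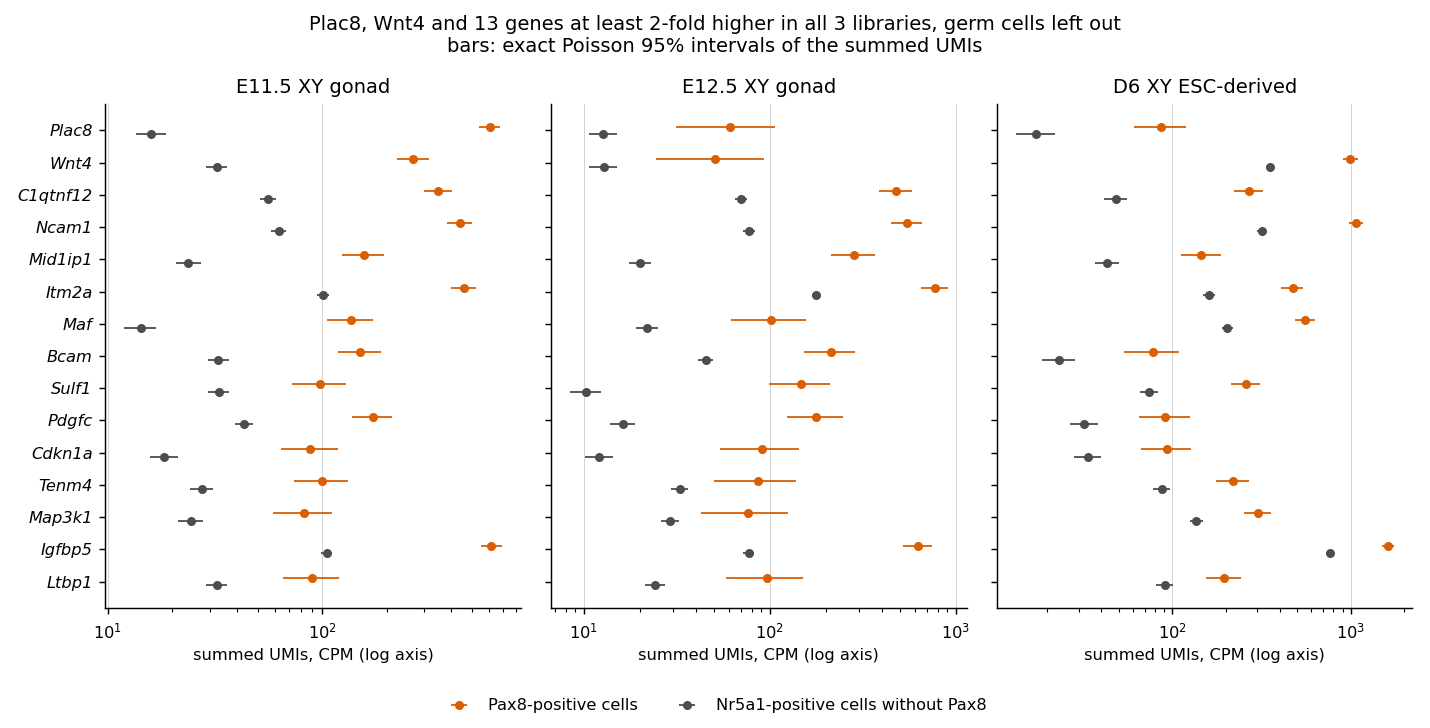
Summed UMIs in CPM (log axis) of Pax8-positive cells (orange) and of Nr5a1-positive cells without Pax8 (grey) in each library, for Plac8, Wnt4, and 13 of the 14 genes called higher in all 3, with exact Poisson intervals. The 13 genes lie to the right in the members of every library, by 2.11-fold (Igfbp5 at D6) to 14.3-fold (Sulf1 at E12.5).

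The 14 higher genes included surface and matrix proteins, secreted regulators, and the cell cycle inhibitor Cdkn1a. Ncam1, the neural cell adhesion molecule (chr9:49502136-49798925), had 438, 547, and 1071 CPM in the members and 62.8, 77.2, and 317 CPM in the comparison cells. Its ratios were 6.97-fold (5.94 to 8.15), 7.09-fold (5.74 to 8.67), and 3.38-fold (3.03 to 3.77), and it was detected in 38 of 48, 18 of 22, and 79 of 84 members, so it was the most widely detected of the leading genes at D6. Bcam, a laminin-binding adhesion molecule, was 4.57-fold, 4.70-fold, and 3.34-fold higher. Tenm4, a teneurin, was 3.64-fold, 2.63-fold, and 2.49-fold higher. Ltbp1, a matrix protein that binds latent TGF-β, was 2.80-fold, 3.99-fold, and 2.15-fold higher.

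Among the secreted regulators, Igfbp5, which binds insulin-like growth factors, had 616, 623, and 1612 CPM in the members and 105, 76.8, and 764 CPM in the comparison cells. Its ratio was lower at D6 (2.11-fold, 1.94 to 2.29) than at E11.5 (5.87-fold, 5.15 to 6.68) or E12.5 (8.11-fold, 6.65 to 9.82), with intervals that did not overlap, and its level was highest at D6 in both groups. Pdgfc, a platelet-derived growth factor, was 3.98-fold, 10.9-fold, and 2.86-fold higher, and Sulf1, which removes sulfate from heparan sulfate, was 2.98-fold, 14.3-fold, and 3.49-fold higher. The remaining genes act within the cell. Mid1ip1, a regulator of fatty acid synthesis (chrX:10715013-10719690), had 156, 284, and 146 CPM in the members, against 23.8, 20.1, and 43.0 CPM. Maf, a basic leucine zipper transcription factor known from interstitial cells, had 136, 101, and 555 CPM against 14.2, 21.9, and 203. The kinase gene Map3k1 was 3.36-fold, 2.61-fold, and 2.20-fold higher. C1qtnf12 and Itm2a, given above, were also among the 14.

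Of the 6 genes lower in all 3 libraries, Top2a, Hist1h2ap, and Birc5 are known from the cell cycle. Tcf21, a transcription factor of gonadal mesenchyme, had 42.0, 40.5, and 37.6 CPM in the members against 117, 112, and 141 CPM. Fbln2, a matrix protein, had 64.0, 45.6, and 35.2 CPM against 164, 212, and 92.1 CPM. Ptgds, the prostaglandin D synthase of Sertoli cells, had 46.0, 81.0, and 37.6 CPM against 179.8, 670.2, and 116 CPM. The comparison cells were not limited in Amh, and against cells held to the limits of the members the direction turned at E12.5 for Ptgds (81.0 against 49.2 CPM, log2 ratio 0.62) and Fbln2 (log2 ratio 0.39).

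Outside the shared genes, each library had its own leaders. At E11.5, Plac8 had the highest log2 ratio (4.57), followed by Wnt4 (2.71), Ncam1, Maf, Htra1, Igfbp5, C1qtnf12, Mid1ip1, Greb1, and Crispld2. Wnt4, a secreted ligand of the ovarian pathway and of nephron formation (chr4:137277489-137299726), had 266 CPM (223 to 315) in the E11.5 members and 32.2 in the comparison cells. At E12.5 it had 50.6 CPM (24.3 to 93.1, from 10 UMIs) and 12.8, and at D6 994 (901 to 1093) and 353. Wnt4 was therefore high in both groups at D6, where the members exceeded the comparison cells by 2.81-fold (2.52 to 3.14), and its level in the D6 members was 3.74-fold (3.07 to 4.58) that of the E11.5 members. At E11.5, the cells with Plac8 were largely those with the other markers: of the 31 Plac8-positive members, 30 carried Ncam1, 28 Wnt4, 28 C1qtnf12, and 26 Itm2a, whereas of the 17 without Plac8, 8, 6, 11, and 6 did, although the latter were deeper (12434 against 7516 UMIs at the median). The 17 included cells described below: 4 rich in Cst9, 1 with endothelial genes, and 1 with genes of tubular epithelium. None of these carried Wnt4, and of them only the cell with endothelial genes carried Ncam1. Their part in the contrast was not tested.

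At E12.5, Mid1ip1 (3.29) and Id1 (3.08) led, followed by Igfbp5, Pdgfc, Ncam1, C1qtnf12, Id3, Ccl17, Klf6, and Fosb. At D6 the leaders were Rmst (3.09), a long noncoding RNA, and Cdh6 (2.91), a cadherin of nephron progenitors and the early renal vesicle, followed by Ap1s2, Sorl1, Crispld2, Tspan13, Sema3c, Enpp2, C1qtnf12, and Atpaf2. Rmst had 148 CPM (114 to 189) in the D6 members and 8.61 in the comparison cells, and it was found in 30 of 84 members, with no more than 7 UMIs in a cell. In vivo, Rmst was too low to be counted, at 48.0 against 4.88 CPM at E11.5 and 65.8 against 1.54 CPM at E12.5, but its ratio was 9.83-fold (5.74 to 16.4) and 42.8-fold (18.9 to 94.9). Cdh6 had 134 CPM (101 to 174) at D6, against 9.13, and was found in 34 of 84 members and 4.62% of comparison cells. It had 14.0 CPM (7 UMIs) at E11.5 and 20.3 CPM (4 UMIs) at E12.5.

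The lists of related genes are described by the number of their members called and by their median log2 ratio, beside medians within 0.01 of 0 over all genes. BMP signaling induces the Id genes, which encode inhibitors of basic helix-loop-helix factors. Of the 20 BMP and Id genes, 5 were counted in each in vivo library, of which 3 were higher and 0 lower at both stages, with medians of 1.35 and 2.02. The 3 were Id1, Id2, and Id3. Id1 had 244 CPM (203 to 291) and 456 CPM (366 to 560) in the members of the gonad libraries and 76.9 and 45.2 CPM in the comparison cells, which is 3.17-fold (2.60 to 3.85) and 10.1-fold (7.96 to 12.7). Id2 was 2.65-fold and 4.40-fold higher, and Id3 was 3.72-fold and 5.8-fold higher. At D6, 0 of 7 counted genes were higher or lower, with a median of 0.45, and Id1 was 1.40-fold (1.08 to 1.80), Id2 1.07-fold (0.920 to 1.25), and Id3 1.40-fold (1.19 to 1.63) higher. The comparison cells at D6 had 121 CPM of Id1 and 418 CPM of Id2, against 76.9 and 139 or less in the in vivo comparison cells. Bmpr1b, a BMP receptor below the limit for counting, was found in 7 of 48, 3 of 22, and 9 of 84 members and in 0.291%, 0% (0 to 0.428), and 0.990% of comparison cells.

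**Figure D3:**
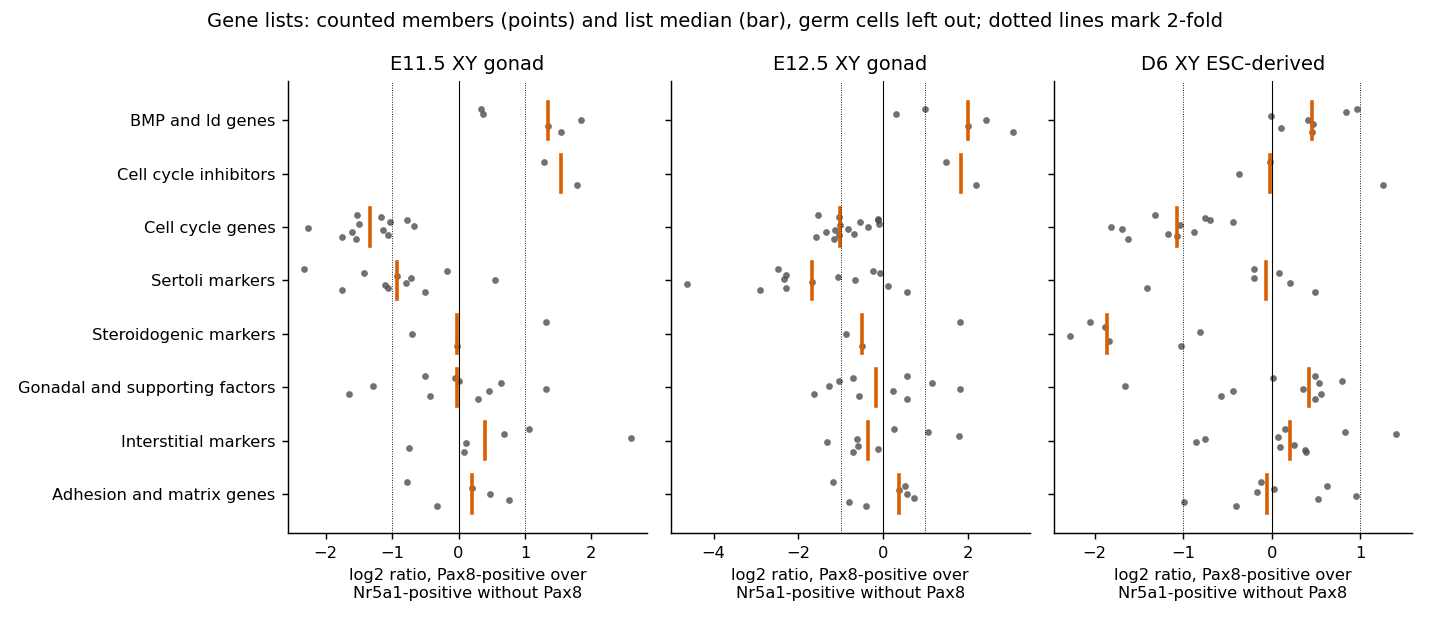
Log2 ratio of Pax8-positive cells over Nr5a1-positive cells without Pax8 for the counted members of 8 gene lists (points) with the list median (orange bar), in each library, germ cells left out. Cell cycle genes lie below 0 in all 3 panels, BMP and Id genes lie above 0 at E11.5 and E12.5, and steroidogenic genes lie below 0 at D6.

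Most counted cell cycle genes were lower in the somatic members of every library, a result that depended on leaving out the germ cells in vivo. Of 12, 15, and 11 counted genes, 10, 8, and 7 were lower and 0 were higher, with medians of -1.34, -1.02, and -1.07. With the germ cells kept, 1 of 14 was lower at E11.5 and 0 of 16 at E12.5, 0 were higher, and the medians were -0.41 and 0.18. Top2a, the topoisomerase of dividing cells, had 42.0, 111, and 113 CPM in the members and 142, 261, and 367 CPM in the comparison cells. Only 3 of 48, 2 of 22, and 11 of 84 members carried Top2a. At least 5 genes of the list were found in 6 of 48 members (4.73 to 25.2%), 4 of 22 (5.19 to 40.3%), and 10 of 84 (5.86 to 20.8%), and in 47.2%, 63.3%, and 25.9% of comparison cells. The members were shallower, but after thinning to 2000 UMIs, with 2 genes as the limit, the shares were still 8.51% against 42.9%, 22.7% against 58.4%, and 16.7% against 32.2%. The inhibitors of the cycle went the other way in vivo. Cdkn1c (p57) had 1463 CPM against 593 and 982 CPM against 344 in the gonad libraries, but 1516 against 1532 at D6, where both groups were high. Cdkn1a (p21) had 88.0, 91.1, and 94.0 CPM in the members against 18.4, 12.1, and 33.6 CPM, but at E11.5 14 of its 44 UMIs came from 1 cell, without which the ratio was 3.42-fold.

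The gonadal identity of the somatic members was mixed. Of 20 gonadal and supporting factors, 10 were counted in each library, and 1, 2, and 0 were higher and 2, 3, and 1 lower, with medians of -0.03, -0.16, and 0.42. Wt1, a factor of the gonadal and nephric primordia, had 382, 344, and 312 CPM in the members, 1.24-fold (1.06 to 1.43), 1.49-fold (1.15 to 1.89), and 1.42-fold (1.17 to 1.70) the comparison level. Gata4, required for the genital ridge, had 126, 86.1, and 79.9 CPM against 173, 132, and 124. Every comparison cell carried Nr5a1 by the rule, whereas the members did not have to. Members with Nr5a1 had 176, 106, and 100 CPM of Gata4, and those without it 42.4, 36.1, and 44.6 CPM. The part of this choice of cells in the differences was not tested. Lhx9, of the gonadal surface and progenitors, was lower in vivo, at 52.0 against 185 CPM and 45.6 against 162 CPM, and had 65.8 against 92.9 CPM at D6, a ratio of 0.709 (0.464 to 1.04). In the members with Nr5a1, Lhx9 had 83.4, 63.3, and 85.6 CPM. Nr0b1 (Dax1) was higher in vivo, at 78.0 against 25.4 CPM and 106 against 23.0 CPM, and was not counted at D6, at 49.3 against 26.3 CPM. Podxl, a sialomucin of coelomic and glomerular epithelium, had 134 against 41.4 CPM and 91.1 against 18 CPM in vivo, and 122 against 87.9 CPM at D6. The retinoid enzyme gene Aldh1a1 was lower in vivo, at 58.0 against 247 CPM and 106 against 462 CPM.

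The Sertoli markers depended on which cells stood on the other side, since the members were limited to fewer than 2 Amh UMIs and the comparison cells were not. Of the comparison cells, 100 of 697, 396 of 864, and 43 of 606 had 2 or more Amh UMIs. Against all of them, 5 of 11, 8 of 13, and 1 of 6 counted Sertoli markers were lower and 0 were higher, with medians of -0.93, -1.69, and -0.06. Against the 580, 457, and 555 comparison cells held to the same limits on Gata3, Ret, and Amh, 2 of 10 were lower and 0 higher at E11.5. At E12.5, 4 of 7 were then higher and 1 lower, with a median of 1.14, and at D6 0 of 3 were higher or lower. Against these cells, 1.57%, 5.65%, and 2.12% of all counted genes were higher and 1.53%, 3.54%, and 1.33% lower. The reversal at E12.5 showed in Aard, at 395 CPM in the members against 115 in the limited comparison cells and 1292 in all comparison cells. Sox9, the transcription factor that directs Sertoli differentiation and is also known from supporting-like cells, had 300, 344, and 63.4 CPM in the members of the 3 libraries, against 428, 230.2, and 42.3 CPM in all comparison cells. Against the limited cells Sox9 was 6.15-fold (4.66 to 8.01) higher at E12.5, where they had 56.0 CPM. Sox9 was found in 30 of 48, 13 of 22, and 18 of 84 members. With the same limited cells, 5 of 9 interstitial markers were lower and 1 higher at E12.5 (median -1.24). At E11.5 (6 counted) and D6 (10 counted), 0 were lower and 1 was higher. Against all comparison cells, 2 of 6, 2 of 8, and 1 of 10 interstitial markers were higher and 0, 1, and 0 lower. The Id, cell cycle, and C1qtnf12 results kept their direction against the limited cells. The level of C1qtnf12 was 8.63-fold (6.78 to 10.9) that of these cells at E12.5.

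At D6 the comparison cells included cells with steroidogenic genes, and the level of these genes was lower in the members. Of 6 counted steroidogenic genes, 5 were lower and 0 higher, with a median of -1.87. Cyp11a1, the side-chain cleavage enzyme, had 113 CPM (83.2 to 149.5) in the members and 430.3 in the comparison cells, Hsd3b1 had 16.4 and 118, Cyp11b1 had 16.4 and 99.6, and Star, the cholesterol carrier, had 155 and 327. Fdxr, which feeds electrons to these enzymes, had 61.1 and 253 CPM, and it was lower in vivo too, though by less than 2-fold (44.0 against 78.1 and 76.0 against 147 CPM). Ly6d (4.70 and 100.4 CPM) and Kcnk3 (11.7 and 110.3 CPM) were also among the 5 lowest genes at D6. In vivo Star, Cyp11a1, and Hsd3b1 were low in both groups, at 26.0 CPM or less. The rule required Nr5a1 in the comparison cells but not in the members. D6 members with Nr5a1 had 167 CPM of Cyp11a1 and 190 of Star, and those without it had 19.1 and 95.7 CPM. The part of this choice of cells in the lower level of the D6 members was not tested.

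Genes of the nephric duct and tubules, tissues that also use Pax8, had similar summed levels in both groups in vivo. The rule left out the 8 and 3 Pax8-positive cells with Gata3 or Ret, which are duct markers, so a low level of duct genes is in part set by the choice of members. Of 22 nephric genes, 0 were counted at E11.5 and 1 at E12.5 (Spp1), which was neither higher nor lower. Their summed level was 146 and 132 CPM in the members against 142 and 163 CPM in the comparison cells. Part of the E11.5 sum came from 1 member, described below. It held 17 of the 18 UMIs of Wfdc2, all 4 of Cdh16, and all 4 of Tfap2b. Lhx1 had 0 UMIs in both groups of both libraries, and Pax2 had 2 UMIs in the E11.5 members and 0 in those of E12.5. At D6 the sum was 376 against 124 CPM, of which Cdh6 was the 1 counted gene. The list of epithelial and rete genes had 1 of 1 counted gene higher at E11.5 (Ncam1), 2 of 3 at E12.5 (Ncam1 and Cdh2), and, in the D6 cells, 3 of 4 (Ncam1, Cdh6, and Aldh1a3). Cdh1 (E-cadherin) had 0, 1, and 0 UMIs in the members. In the ovarian list, 1 of 2, 1 of 2, and 1 of 3 counted genes were higher, Wnt4 at E11.5 and D6 and Nkd1 at E12.5, and Fst had 14, 0, and 1 UMIs in the members.

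A few single cells carried part of these values. At E11.5, the cell with the most Pax8 UMIs (8) also carried all 8 endothelial genes of the list, 10 UMIs of Wt1, and 10 of Sox9, among 23680 UMIs. Another E11.5 member had Wfdc2 (17 UMIs), Epcam (14), Cldn7 (9), Cdh16 (4), and Tfap2b (4), genes of tubular epithelium, and neither Nr5a1 nor Wt1. In 4 E11.5 members with 20 to 57 UMIs of Cst9, a Sertoli gene, 160 of the 189 Cst9 UMIs of all members were found, together with 11 to 16 UMIs of Sox9 each, 2 or 3 UMIs of Pax8, and no UMI of Plac8, Ncam1, or Wnt4. At D6, 2 members with neural genes (Tubb3, Stmn2, and Ina) held 21 of the 26 UMIs of Lhx1 and had no UMI of Wnt4, Wt1, or Nr5a1. Also at D6, 34 of the 52 UMIs of Aldh1a3, a retinaldehyde dehydrogenase, came from 1 cell, without which its ratio was 1.98-fold. Without such cells, which left 42 members at E11.5, 65 of 2828 genes were called higher and 87 lower at E11.5. High Cst9 led to removal only in Pax8-positive cells, so 117 E11.5 comparison cells with 20 or more Cst9 UMIs were not removed for it. The part of this in the 87 lower genes was not tested. The 177 of 7150 retained cells with the highest doublet scores, a number set by the expected doublet rate, included 0, 0, and 1 members. Summed over the whole lists, the endothelial genes had 106, 60.8, and 18.8 CPM in the members and 108, 56.8, and 69.4 CPM in the comparison cells. The macrophage genes had 4.0 CPM or less in the members of every library, and the neural genes had 119.8 against 20.3 CPM at D6. The E11.5 and E12.5 libraries shared 10 cell barcodes, 7 of them retained, and neither shared any with D6.

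Members with and without Nr5a1 were also compared. At E12.5 the 9 members without Nr5a1 had 1463 CPM of Itm2a (1162 to 1818) and the 13 with Nr5a1 had 499.6 (390.2 to 630.1), and C1qtnf12 (957 and 288), Mid1ip1 (578 and 169), Id1 (1119.7 and 197), and Id3 (1282 and 429) were split in the same way. Sox9 went the other way, at 54.2 CPM (11.2 to 158) without Nr5a1 and 457 (353 to 583) with it, an 8.44-fold (2.76 to 42.0) difference. Top2a had 155 CPM in the 13 E12.5 members with Nr5a1, all of it from 2 cells with 11 UMIs each. The 9 others had 0 UMIs of Top2a, with an upper limit of 66.6 CPM. At E11.5, Plac8 was 1.88-fold higher without Nr5a1 (854 against 455 CPM), whereas Wt1 (488 against 207), Gata4 (176 against 42.4), and Lhx9 (83.4 against 0, with an upper limit of 19.6) were higher with it, and Itm2a, C1qtnf12, and Wnt4 differed by 1.28-fold or less. At D6, Itm2a, C1qtnf12, and Wnt4 differed by 1.18-fold or less, and Plac8 had 67.0 CPM (39.7 to 106) with and 121 (73.0 to 189) without Nr5a1, a ratio of 0.553 (0.273 to 1.11). Cyp11a1 had 167 CPM (122 to 224) with and 19.1 (3.95 to 55.9) without it. In the members, a UMI of Nr5a1 is more likely to be seen in a deeper cell, and the groups differed in depth (medians of 11235 and 8752, 9554 and 6618, and 4903 and 3546 UMIs). These groups are splits of a few cells of 1 library each.

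**Figure D4:**
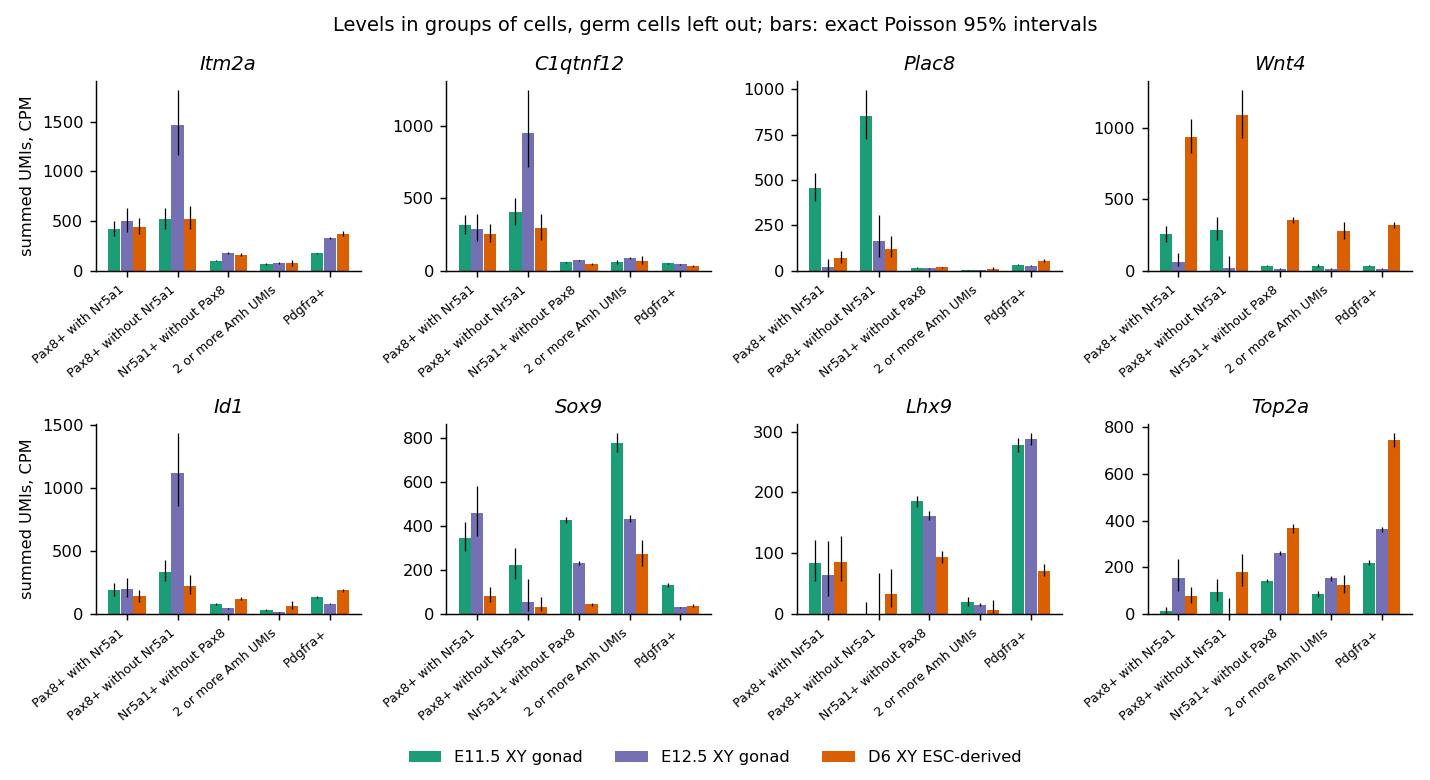
Summed UMIs in CPM of 8 genes in Pax8-positive cells with and without Nr5a1, Nr5a1-positive cells without Pax8, cells with 2 or more Amh UMIs, and Pdgfra-positive cells, for the 3 libraries, with exact Poisson intervals. C1qtnf12 is highest in the Pax8-positive cells of every library and Plac8 in those of E11.5, Sox9 is high in the cells with Amh, and Lhx9 is high in the Pdgfra-positive cells in vivo.

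Set beside other groups of cells, the markers differed in how closely they followed Pax8. C1qtnf12 had 59.0, 86.6, and 67.3 CPM in cells with 2 or more Amh UMIs and 49.2, 43.5, and 32.0 CPM in Pdgfra-positive cells, all below the members. Itm2a was also high in Pdgfra-positive cells, at 172, 328, and 373 CPM, so that at D6 it exceeded the limits of this group only narrowly, with 472 CPM (409 to 542) against 373 (351 to 395). Plac8 was nearly absent from cells with Amh, at 1.19, 0.323, and 6.12 CPM, and had 32.5, 26.8, and 53.0 CPM in Pdgfra-positive cells. At D6, its interval of 61.2 to 119.8 in the members overlapped that of the Pdgfra-positive cells, 45.2 to 61.8.

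At E12.5 the immediate-early genes, which respond within minutes to dissociation and to growth factors, were also higher in the members. Fos had 916 CPM against 232, Jun 911 against 274, Junb 253 against 67.5, Egr1 334 against 112, and Klf6 324 against 62.0. At E11.5 the ratios of Fos, Jun, and Egr1 were 1.63-fold, 1.23-fold, and 1.58-fold, and at D6 0.848-fold, 0.937-fold, and 1.09-fold. Junb had 166 CPM in the members against 78.2 at E11.5, and 56.4 against 58.9 at D6, so it was higher in the members at E11.5 too. Members and comparison cells of a library were dissociated together, the median mitochondrial share was 4.16% and 3.46% of UMIs at E12.5, and the part of these genes in the E12.5 result was not tested.

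Over all genes counted in both libraries of a pair, the log2 ratios correlated across genes with r = 0.617 between E11.5 and E12.5 (2630 genes), 0.581 between E11.5 and D6 (2408 genes), and 0.481 between E12.5 and D6 (2529 genes). Genes are not independent replicates, and the points of a pair come from separate libraries and separate cells, but the lower depth of the members is shared by all 3. With the germ cells left among the members, r was 0.723, 0.390, and 0.0907, higher than without them for the 2 in vivo libraries and lower for both pairs with D6.

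**Figure D5:**
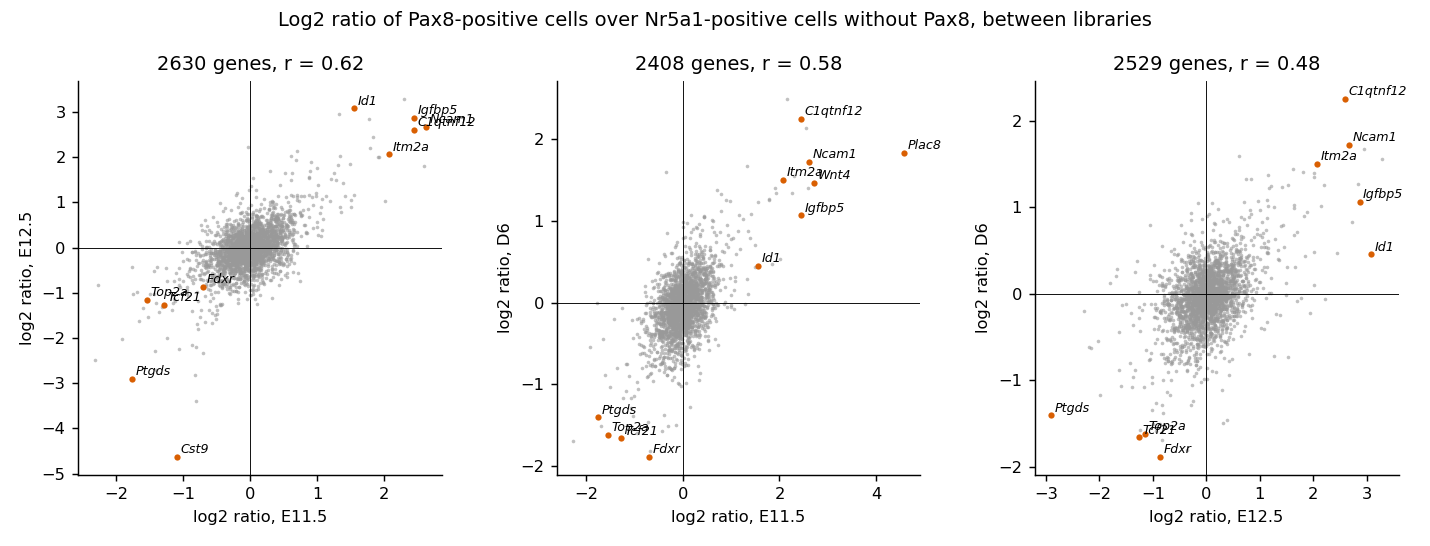
Each point is a gene counted in both libraries, plotted by its log2 ratio of Pax8-positive cells over Nr5a1-positive cells without Pax8, germ cells left out. C1qtnf12, Ncam1, Itm2a, and Igfbp5 lie at the upper right and Ptgds, Tcf21, and Top2a at the lower left in every panel, whereas Id1 lies near 0.45 at D6.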

How the data were processed

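The authors deposited UMI counts per gene and cell barcode for each library, without normalization, aligned to mm10 with Cell Ranger 3.0.2 according to the labels and 6.0.0 according to the file headers. The UMI counts were used as deposited. Retained cells had more than 500 and fewer than 5000 genes with under 20% mitochondrial UMIs (E11.5), 2000 and 5000 with 8% (E12.5), or 1000 and 4000 with 12% (D6). Total UMIs of retained cells were 24625441, 34173977, and 11906360. The deposited barcodes numbered 12539 in the 4 libraries.

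Counts were summed over the cells of a group and scaled to CPM. Ratios were taken with a pseudocount of 10 CPM, whereas folds in the text are ratios of CPM without it. With 1 library per condition no test was run. Sums carry exact Poisson intervals, shares Clopper-Pearson intervals, and folds exact conditional binomial intervals, and UMIs within a library are treated as independent. Where 0 cells were found, the share still allowed was taken as 3 counts over the cells. Thinning drew 2000 UMIs from each cell and left out cells with fewer. Doublets were scored with Scrublet in scanpy 1.11.5, at an expected 0.8% per 1000 cells, and left in.

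Genes are named if they are on 1 of 22 lists, if they are among the 10 highest or 5 lowest of a library with at least 30 UMIs in the higher group, or if they were called in all 3 libraries, and 1 gene of the last kind is not reported here. The immediate-early genes Fos, Jun, Junb, and Egr1 were chosen after their values were seen. The members, the marker genes, and the lists were chosen with earlier results of these data known. Gene positions are from the GRCm38 annotation. The ratio step was tested on simulated data, and the TMM factor was checked against edgeR 4.0.16 in R 4.3.3. The other steps used Python 3.11.15 (scipy 1.17.1, numpy 2.4.6, matplotlib 3.10.9, pandas 2.3.3).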

Additional observations from a re-analysis of the deposited data

Results flagged for a closer look

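The E10.5 library, which lies outside the rule, also held Pax8-positive cells: 69 cells without Gata3 or Ret and with fewer than 2 Amh UMIs, of 3837 retained cells (1.80%, exact binomial interval 1.40 to 2.27). These cells lie in data that none of the comparisons used. Their tissue included dorsal mesenchyme around the gonads. One of them was a germ cell, and 6 of the 68 others (8.82%, 3.31 to 18.2) carried Nr5a1. Pax2 was found in 32 of the 68 cells and Lhx1 in 16, at 94.6 CPM (72.5 to 121) and 56.4 CPM (39.7 to 77.8), against 1.60 and 0 CPM in 64 Nr5a1-positive cells without Pax8, and Wfdc2 had 246 against 6.39 CPM. Lhx9 had 7.63 CPM against 358 and Gata4 4.58 against 62.3. Of the genes higher in the later members, C1qtnf12 (224 against 35.2 CPM), Ncam1 (435 against 109), and Wnt4 (163 against 44.7) were higher in these cells too, whereas Itm2a (19.8 against 136) and Plac8 (19.8 against 62.3) were lower and Mid1ip1 (15.3 against 20.8) differed within counting error.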

How the results depend on the processing

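No paired analysis was possible because each condition had 1 library. The ratios of named genes were recomputed under up to 14 alternatives without germ cells, which gave 1487 values. Of these, 1293 stayed within their counting error, or within a fixed log2 limit where the top member was removed. Another 190 moved by more, and 4 that had been at least 2-fold apart changed sign. Sign changes of smaller ratios were not counted apart. The 14 genes higher in all 3 libraries kept their direction under all 14 alternatives, and 8 of them stayed past 2-fold in every library under every one, among them C1qtnf12, Ncam1, Mid1ip1, Itm2a, Maf, Bcam, and Sulf1. None of the 6 lower genes did so. Against comparison cells held to the same limits, the E12.5 log2 ratios were 1.69 for Aard, 0.39 for Fbln2, and 0.62 for Ptgds. For Ptgds, 1 member held 12 of the 16 UMIs. With 2 or more Pax8 UMIs the E11.5 ratio of Cst9 was 0.07, where the 4 Cst9-rich cells weigh more.

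The number of genes called with germ cells kept was 83 of 2777, 353 of 2963, and 118 of 3547 in the order E11.5, E12.5, D6. With no filter on low values it was 340 of 17321, 1059 of 17133, and 470 of 16971. After thinning it was 261 of 2856 at E11.5 and 204 of 3561 at D6, and with 2 or more Pax8 UMIs 155 of 2776 and 207 of 3594. At E12.5 it was 140 with Nr5a1 required, 185 without cells carrying 3 germ, endothelial, or macrophage genes, and 184 without germ cells. Without germ cells (91 of 2801 at E11.5 and 184 of 3021 at E12.5) it was 388 of 17048 and 917 of 16872 with no filter. It was 162 and 287 from means of single cells, 312 and 614 after thinning, and 151 and 478 with 2 or more Pax8 UMIs. At E11.5 it was 152 of 2828 without the cells of other types. Thinning and the stricter rule leave fewer UMIs. The 14 genes higher in all 3 libraries were 9 with the TMM factor, 50 with no filter, and 9 with Nr5a1 required. The 6 lower genes were 30 with no filter, 12 from means of single cells, 1 with Nr5a1 required, 11 after thinning, and 10 with 2 or more Pax8 UMIs. Apart from the fewer cells or genes that an alternative leaves, the cause was not tested. The share of Pax8-positive cells with germ cells kept (2.67%, 1.23%, and 3.68%) was 0.809%, 0.362%, and 1.71% with 2 or more UMIs and 1.06%, 0.398%, and 2.51% after thinning. Without germ cells it was 0.809% and 0.362%, and 0.951% and 0.398%. At E12.5, 22 somatic members with 197502 UMIs limit the values, and genes under 50 CPM rest on 10 UMIs or fewer.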
